A study of Drosophila melanogaster with 90 samples.

Results

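The dpr, DIP, beat and side genes encode cell surface proteins with immunoglobulin domains that neurons use to recognise each other. They were read on Affymetrix Drosophila Genome 2 arrays of whole late pupae. Members were the probe sets that carry a single gene symbol which is dpr followed by a number, begins with DIP- or beat-, or is side or begins with side-. This gave 93 probe sets out of 18769 that remained after control probe sets were taken out, and they stand for 51 of 11982 genes with a probe set of their own. There were 20 dpr genes with 37 probe sets, 10 DIP genes with 16, 13 beat genes with 18 and 8 side genes with 22. A gene with several probe sets is described by its brightest one unless another is named.

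All pupae were Oregon R, a wild-type strain, collected as larvae at the end of larval life and taken just before eclosion, so that genotype and intended stage were shared by all groups. The labels give a stay of 3.5 days at 24 °C in the facility, while the methods of the study give 4 days at 22 °C. The random positioning machine (RPM) turns a sample continuously to simulate 0g, and its 20 arrays fell into 6 groups (open containers at constant temperature, open containers after a cold step and closed containers after a cold step, each at simulated 0g and in a still 1g control). The magnet holds pupae at 3 positions of a strong field, called 0g* (levitated), 1g* and 2g*, with a 1g control away from the field. The field is stronger at 1g* than at 0g* and 2g*, so that contrasts with 1g* change field strength together with effective gravity. Its 30 arrays fell into 10 groups, namely the 3 positions and the 1g control in closed containers with and without the cold step, and open 1g controls with and without it. The Large Diameter Centrifuge (LDC) exposed pupae to 6g or 12g, beside a rotational control on the centrifuge and a still 1g control. Its 40 arrays fell into 16 groups, which are those 4 conditions in open or closed containers, each with and without the cold step. The cold step lasted 3.5 days before the exposure at 12 °C (14 °C in another place of the methods), and a closed container limited the oxygen.

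Each group held 2 to 4 arrays, each made from a pool of pupae that the labels call a biological replicate. No source used here says whether those pools came from separate cultures. The p-values rest on the spread between arrays within groups, pooled over all groups of a facility and not only the groups compared. In the LDC, 19 arrays belonged to a first experiment and 21 to a second one run in parallel. The open 12g arrays were of the first and the open 6g arrays of the second, whereas each open control group mixed 1 array of the first with a pair from the second. The spread within those control groups therefore includes any difference between the experiments. In closed containers both hypergravity levels were of the second experiment and both kinds of control of the first, so that there gravity and experiment cannot be told apart. Array medians (log2 units) were 5.03 to 5.15 in the RPM, 4.99 to 5.11 in the magnet and 6.37 to 6.53 in the LDC, and values were therefore compared within a facility only. No pair of arrays held identical values (0 pairs), and arrays of one group correlated at 0.9519 to 0.9956.

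Dpr proteins (defective proboscis extension response) and DIPs (Dpr-interacting proteins) bind each other across cell contacts, and many neuron types carry their own combination of them. Beat proteins (beaten path) are receptors for Side proteins (sidestep). Beat-Ia on motor axons and Side on their targets steer those axons, while Side-IV with Beat-IIa and Beat-IIb, and Side-II with Beat-VI, act in the visual system. In pupae these families take part in the assembly of adult circuits, when axons choose partners and form synapses.

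The members came from long genes scattered over the genome. In the RefSeq gene table (Release 6 assembly) the 51 genes spanned 3.74 to 165 kb with a median of 33.6 kb, against a median of 2.16 kb over 13962 protein-coding genes. More than 10 kb was covered by 80.4% of the members and by 14.2% of all protein-coding genes. The longest were dpr6 and dpr8, and the shortest were dpr19 and dpr20. Chromosome arm 3R carried 21 members (41.2%, against 24.3% of all protein-coding genes) and 2L carried 15 (29.4%, against 19%), while 5 lay on X, 5 on 2R, 4 on 3L and 1 on chromosome 4. The genes dpr4 and dpr5 were direct neighbours.

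On the arrays the members were mostly of low to middle intensity. The median member lay at percentile 42.7 of all probe sets in the RPM, 43 in the magnet and 41.6 in the LDC. Of the 51 genes, 15 lay above the median probe set in the RPM, 17 in the magnet and 15 in the LDC, and 8, 9 and 7 lay below the 25th percentile. The DIP genes, which encode the receptors for Dpr proteins, were the dimmest family, with median percentiles of 36, 35.4 and 34.2. The median percentiles of the dpr genes were 43.6, 45.2 and 43.2, those of the beat genes 42.8, 42.5 and 41.6, and those of the side genes 43.9, 43.7 and 44.7.

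**Figure D1:**
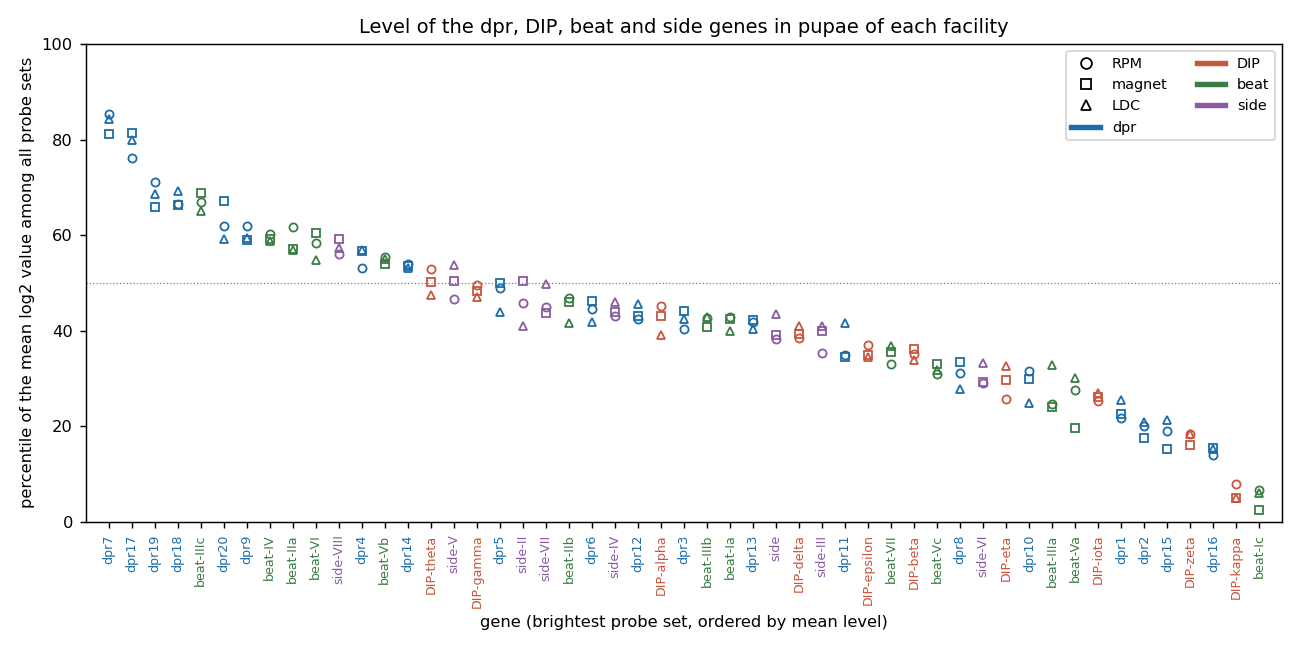
Percentile of the mean log2 value of each of the 51 genes (brightest probe set) among all 18769 probe sets, for the RPM, magnet and LDC arrays; genes are ordered by mean level and coloured by family. Most points lie under the middle of the scale, and dpr7 stands highest with percentiles of 85.3, 81.2 and 84.2.

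The brightest member was dpr7, with mean log2 values of 7.94 in the RPM, 7.51 in the magnet and 8.99 in the LDC. It was followed by dpr17 (7.08, 7.51 and 8.59), dpr19 (6.7, 6.25 and 7.76), dpr18 (6.36, 6.29 and 7.79) and beat-IIIc (6.39, 6.47 and 7.51). The dimmest were beat-Ic (3.11, 3.01 and 4.4), DIP-kappa (3.15, 3.12 and 4.35), dpr16 (3.31, 3.41 and 4.77), DIP-zeta (3.43, 3.43 and 4.88) and dpr15 (3.44, 3.4 and 4.99). Such values cannot be set against each other as amounts of RNA, because each probe set has its own response. Markers of neurons and muscle were also read in these whole animals. The vesicle fusion gene Snap25 reached percentiles of 95.7, 95.6 and 96.8 and the RNA-binding gene elav 66.1, 70.8 and 58. Of other neuronal markers, cac lay at 83, 84.8 and 80.3 and nSyb at 74.4, 74.4 and 78.7. Lower were brp (52, 59.1 and 54.8) and para (48.3, 49.7 and 45.1), so the neuronal markers were not uniformly bright. The flight muscle actin Act88F reached 13.63, 13.7 and 14.65 in log2 units. In bulk tissue of this kind, fewer cells of a type and less RNA per cell cannot be told apart.

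Within groups the members scattered about as much as other probe sets. The median within-group SD of the 51 genes was 0.17 in the RPM, 0.24 in the magnet and 0.23 in the LDC, against 0.17, 0.21 and 0.21 over all probe sets. Over all arrays of a facility the median SD was 0.19, 0.26 and 0.33 for the members and 0.2, 0.25 and 0.28 for all probe sets.

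Much of that scatter was shared. Across the 40 LDC arrays 14 genes followed dpr18 with a Pearson r of 0.7 or more, a limit that was set after the values had been seen. They were dpr19, DIP-theta, dpr15, beat-IIa, beat-Ia, dpr9, dpr10, beat-IV, DIP-kappa, beat-Ic, dpr16, dpr11, dpr7 and dpr20. With dpr18 the covarying genes numbered 15, made up of 9 of 20 dpr genes, 2 of 10 DIP genes, 4 of 13 beat genes and 0 of 8 side genes. Just inside the limit were dpr7 (0.74) and dpr20 (0.73), and just outside it were DIP-zeta (0.69) and beat-IIIc (0.66). These correlations are descriptions over arrays that share treatments and, in the LDC, experiments. Because the set was chosen on the LDC arrays, its members had to move with dpr18 in any LDC contrast in which dpr18 moved, and counts over it are given there as a description only.

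The limit on r was applied to the LDC arrays alone. Whether dpr18 was taken as the reference without regard to the magnet and RPM arrays is not established. Its SD over all arrays was the largest of the members in the magnet (0.84) and the RPM (0.38). The values in those facilities are therefore a description and no independent check. Over the 30 magnet arrays the r of the 14 genes with dpr18 ran from 0.44 to 0.97 with a median of 0.86, and the median of the 36 other genes was -0.38. Over the 20 RPM arrays it ran from 0.34 to 0.81 with a median of 0.64, against 0.08 for the others. After the group means were subtracted the medians were 0.86 in the LDC, 0.74 in the magnet and 0.64 in the RPM, against -0.21, -0.42 and -0.08 for the others, so the arrays of single groups also differed along this axis. In the magnet some members ran the opposite way, among them dpr4 (r -0.87) and DIP-delta (r -0.78).

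The axis moved with the spread of values on an array. The r between the mean of the 15 covarying genes and the SD of all probe sets of an array was 0.16 in the RPM, 0.92 in the magnet and 0.55 in the LDC, and 0.63, 0.86 and 0.82 within groups, whereas the mean of the 36 other genes had -0.34, -0.67 and -0.71 over all arrays. The open magnet control with the lowest mean (4.12, against 4.55 and 4.9 on the others) had an SD of 2 and a 25th percentile of 3.98, against 2.14 and 2.19 and 3.77 and 3.65. After quantile normalization, which gives all arrays of a facility the same spread and was added after seeing the data, the median r of the 14 genes with dpr18 was 0.61 in the RPM, 0.86 in the magnet and 0.84 in the LDC, and that of the 36 others was 0.1, -0.09 and 0.08. The mean of the 15 covarying genes after that normalization was also set against the SD the arrays had before it. This r was 0.13 in the RPM, 0.93 in the magnet and 0.55 in the LDC. The part of array spread in the member values was not tested beyond this.

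**Figure D2:**
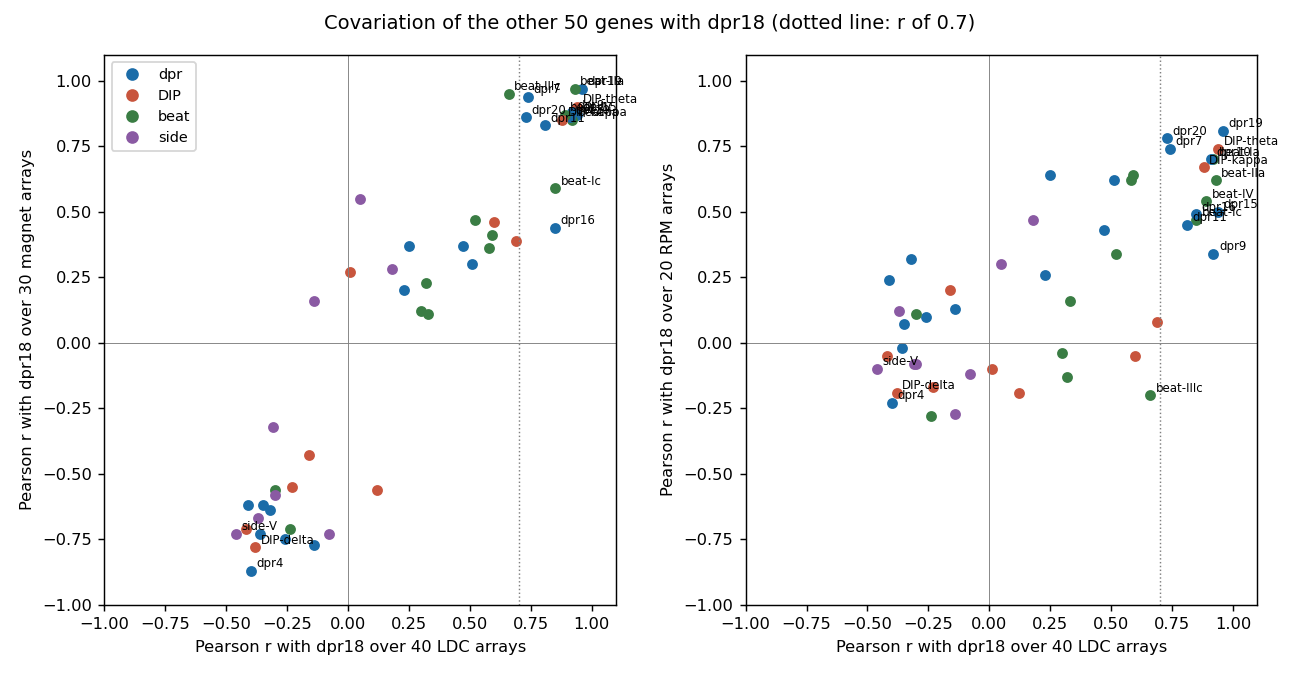
Pearson r of each of the other 50 genes with dpr18 over the 40 LDC arrays (horizontal axis) and over the 30 magnet or 20 RPM arrays (vertical axes), coloured by family; the dotted line marks r of 0.7. The 14 genes right of the line lie at 0.44 to 0.97 in the magnet and at 0.34 to 0.81 in the RPM.

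The mean of the 15 covarying genes moved from array to array with other gene lists. Its r with the mean of 24 pan-neuronal and synaptic genes was 0.78 in the RPM, 0.89 in the magnet and 0.9 in the LDC. With 60 other axon guidance and recognition genes r was 0.25, 0.95 and 0.91, with 11 ecdysone response regulators 0.24, 0.95 and 0.79, and with 8 cuticle tanning enzymes of late pupae 0.62, 0.93 and 0.87. With 8 glial genes r was 0.61, 0.83 and 0.86, with 10 muscle genes 0.27, -0.14 and 0.75, and with 10 male accessory gland genes -0.21, -0.72 and -0.41. Ecdysone times metamorphosis and the tanning enzymes act shortly before eclosion, and how far the age of the pupae within a pool enters these values was not tested.

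The arrays of the LDC experiments differed in these genes. In the open 1g control at constant temperature dpr18 read 7.97 on the array of the first experiment and 9.14 and 8.26 on those of the second, and beat-Ia read 5.77 against 7.12 and 6.65. In both genes the first experiment was the lowest of the 3 arrays. Over the 15 covarying genes the median excess of the second experiment (log2) was 1.03 in the 1g control and 1.4 in the rotational control at constant temperature, where 15 of 15 were higher in each, and 0.46 and 0.46 after the cold step, where 13 of 15 were higher in each. The common direction of these genes in the step is built into their choice on LDC arrays. The medians of the 36 other genes were -0.02, -0.1, -0.08 and -0.34. In contrast, dpr4 was lower in the second experiment in all 4 control groups (log2 differences of -0.6, -1.01, -0.96 and -1.29), as was side-IV (-0.39, -0.16, -0.83 and -0.7).

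**Figure D3:**
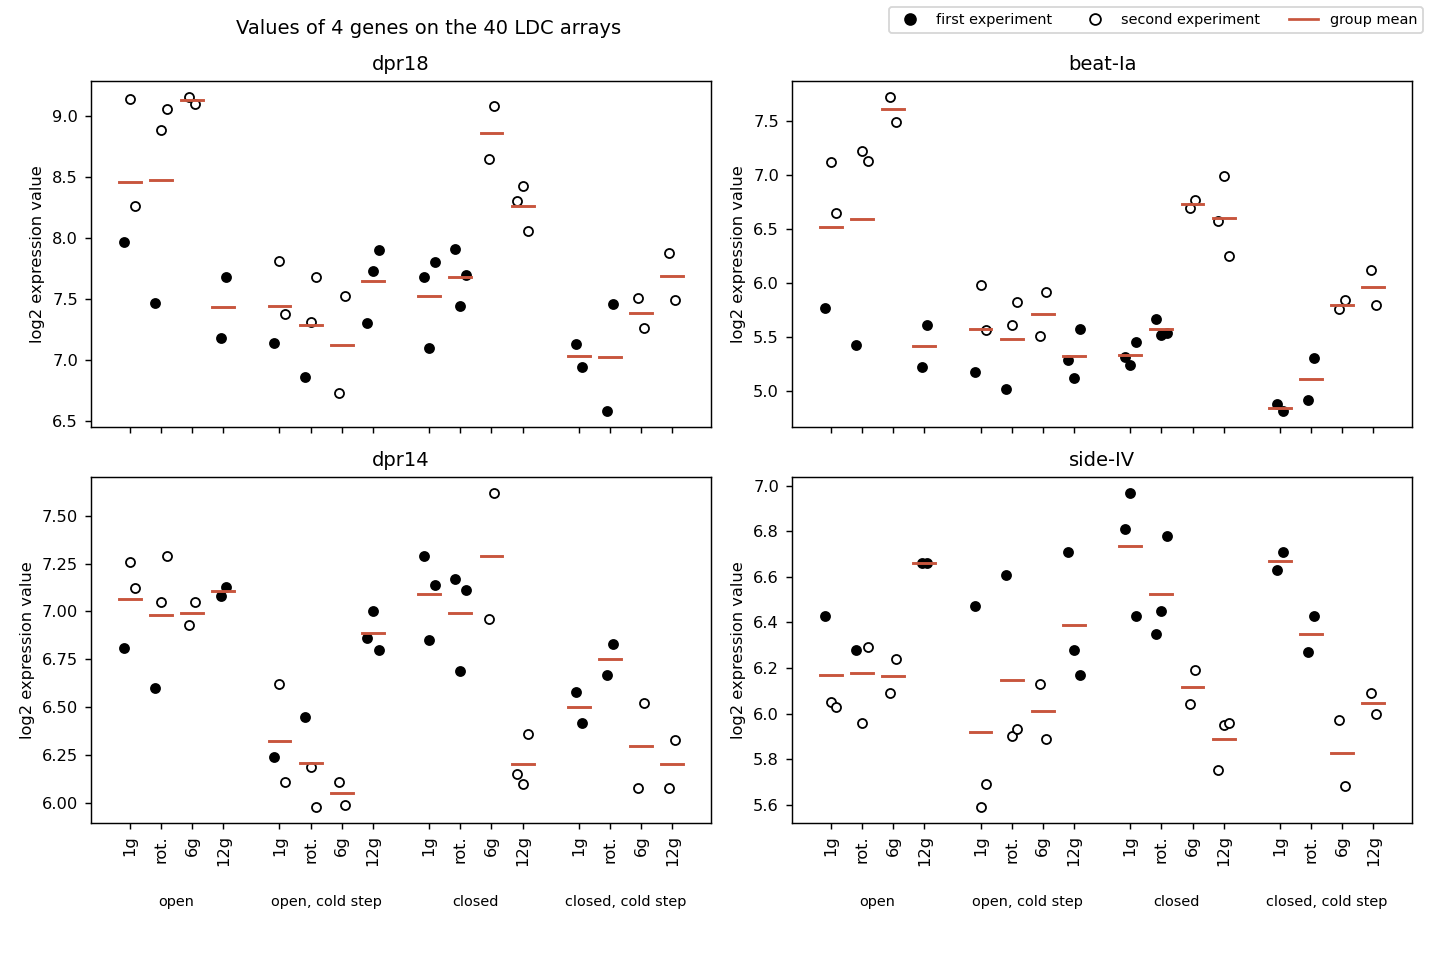
Log2 values of dpr18, beat-Ia, dpr14 and side-IV on the 40 LDC arrays by gravity level (1g, rotational control, 6g, 12g) and environment; filled points are of the first experiment, open points of the second, and lines are group means. The open points of dpr18 and beat-Ia lie above the filled one in the control groups at constant temperature, and dpr14 at 12g in closed containers (6.15, 6.1 and 6.36) lies below its controls.

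The comparisons that follow were each tested with limma across all probe sets. The p-values were adjusted by Benjamini-Hochberg within a comparison, and a probe set was called at an adjusted p under 0.05. Counts from other fits are given without the share of all probe sets called in those fits. Differences are on the log2 scale and are given with the standard error of that fit. Genes were named by the size of their change in the same comparison. A lack of overlap between their arrays partly follows from that choice and describes the values only.

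Simulated 0g on the RPM gave no call among the members. In each of the 3 environments 0 of 93 probe sets were called, where 0.00533% of all probe sets were called in open containers at constant temperature, 0% after the cold step and 0% in closed containers after the cold step. At an unadjusted p under 0.05 there were 11, 1 and 4 members, which is 11.8%, 1.08% and 4.3% of them against 13.9%, 1.51% and 9.63% of all probe sets. The smallest p-values without constraint belonged to dpr20 (-0.48 ± 0.15, adjusted p 0.194), dpr17 (-0.57 ± 0.18, adjusted p 0.197) and side-VII (0.35 ± 0.13, adjusted p 0.237). Values of dpr20 and dpr17 were lower on the RPM and those of side-VII higher. After the cold step the smallest adjusted p was 0.998, for dpr14 at -0.39 ± 0.2, and in closed containers the genes with the smallest p were side-IV (-0.21 ± 0.1) and DIP-beta (0.16 ± 0.08). The change in RPM response between environments was called in 0 members for both contrasts. Of all probe sets 0% were called after the cold step and 0% in closed containers. An unadjusted p under 0.05 was found for 3 and 6 members (3.23% and 6.45%, against 3.22% and 13.2% of all probe sets).

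In the magnet no member was called against the 1g control either. The counts were 0 of 93 at 0g*, 1g* and 2g* in closed containers at constant temperature, beside 0%, 0.0107% and 0.416% of all probe sets. After the cold step they were again 0 at the 3 positions, beside 0.501%, 0.0426% and 0.101%. The numbers at an unadjusted p under 0.05 were 7, 4 and 4 without the cold step and 5, 0 and 0 after it. Without it these were 7.53%, 4.3% and 4.3% of the members, against 3.78%, 4.3% and 8.93% of all probe sets. After it they were 5.38%, 0% and 0%, against 7.28%, 2.67% and 3.44%. The smallest p at 1g* belonged to side-VII (0.41 ± 0.14, adjusted p 0.802), which also read 0.35 ± 0.14 at 0g* and 0.3 ± 0.14 at 2g* against the same controls. After the cold step the lowest p at 0g* was that of DIP-theta (-0.5 ± 0.23, adjusted p 0.657).

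Between the magnet positions the count was 0 of 93 in all 6 comparisons. Beside them 0.0213% of all probe sets were called for 0g* against 1g*, 3.36% for 2g* against 1g* and 0.352% for 0g* against 2g* at constant temperature, and 2.49%, 0% and 3.85% after the cold step. The members with an unadjusted p under 0.05 numbered 8, 10 and 4 at constant temperature and 4, 0 and 10 after the cold step. At constant temperature these were 8.6%, 10.8% and 4.3% of the members, against 5.69%, 14.5% and 9.65% of all probe sets. After the cold step they were 4.3%, 0% and 10.8%, against 10.1%, 1.94% and 11.7%. The nearest to a call were DIP-kappa (2.72 at 1g* and 3.19 at 2g* in the group means, a difference of 0.47 ± 0.14, adjusted p 0.0591) and DIP-theta (4.2 and 4.95, a difference of 0.75 ± 0.23, adjusted p 0.0778), both higher at 2g* in closed containers at constant temperature. DIP-kappa lies at percentile 4.98 in the magnet, close to the bottom of the scale. The change of the 0g*, 1g* and 2g* responses with the cold step was called in 0 members. Of all probe sets 0%, 0.016% and 0% were called. At an unadjusted p under 0.05 there were 3, 1 and 1 (3.23%, 1.08% and 1.08%, against 4.35%, 3.49% and 3.72% of all probe sets). In the RPM and the magnet, leaving out any array left the gravity counts against 1g at 0.

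In the centrifuge members were called, in directions that varied between environments. At 12g in open containers at constant temperature 0 of 93 were called (0.149% of all probe sets), at 6g 0 (0%), and in the rotational control 0 (0.016%). Among the 15 covarying genes the median difference from 1g was -0.62 at 12g, with values from -1.11 to -0.12, and 0.86 at 6g, with values from 0.25 to 1.43. Their mean was 5.9 and 6.3 on the 12g arrays and 6.09 and 6.01 on the still and rotational control arrays of that same first experiment. On the 6g arrays it was 7.55 and 7.47, and on the controls of the second experiment 7.23, 6.77, 7.23 and 7.29. The differences from the mixed controls therefore hold the step between experiments together with gravity level. Beside controls of their own experiment, the first 12g array lay below both controls and the second above both. Both 6g arrays lay above all controls of theirs. The lowest p at 12g belonged to beat-Ia (-1.09 ± 0.37, adjusted p 0.187) and at 6g to dpr16 (0.86 ± 0.19) and dpr10 (1.43 ± 0.39), both with an adjusted p of 0.636. At an unadjusted p under 0.05 there were 16 members at 12g (17.2%, against 15.1% of all probe sets), 22 at 6g (23.7%, against 7.51%) and 3 in the rotational control (3.23%, against 6.36%).

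The direct contrast of 12g with 6g in these open containers at constant temperature gave 23 called probe sets. Of the 93, 17 were lower at 12g (18.3%, against 6.28% of all probe sets) and 6 were higher (6.45%, against 6.88%). By gene, 14 of the 15 covarying genes were lower at 12g, whereas among the 36 others 2 were lower and 2 were higher, a division that the choice of the covarying genes on these arrays largely fixed. The guidance receptor gene beat-Ia read 5.23 and 5.61 at 12g and 7.72 and 7.49 at 6g, a difference of -2.18 ± 0.41 (adjusted p 0.00749). The beat family gene beat-IV read 6.21 and 6.8 against 8.73 and 8.81 (-2.26 ± 0.5, adjusted p 0.0125). The arrays of both levels did not overlap in either gene, and beat-IV showed the largest difference of all members in this comparison.

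Among the Dpr genes, dpr10, which in muscles and the visual system pairs with DIP-alpha, read 4.62 and 4.86 at 12g and 6.95 and 6.84 at 6g (-2.16 ± 0.42, adjusted p 0.00869). dpr18 read 7.18 and 7.68 against 9.16 and 9.1 (-1.7 ± 0.41, adjusted p 0.0167), dpr15 4.56 and 4.96 against 6.31 and 6.54 (-1.66 ± 0.38, adjusted p 0.014), and dpr19 7.6 and 7.73 against 9.29 and 9.17 (-1.56 ± 0.45, adjusted p 0.0289). All of them were lower on both 12g arrays. The same held for beat-IIa (-1.62 ± 0.39), dpr9 (-1.41 ± 0.46), DIP-theta (-1.23 ± 0.3), dpr11 (-1.22 ± 0.36), beat-Ic (-1.21 ± 0.31) and dpr16 (-1.13 ± 0.21). Higher at 12g were dpr2 by 0.46 and the side family gene side-VII by 0.43.

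This contrast set the first experiment (12g) against the second (6g). A term for the second experiment, as used here and below, is a common step for all LDC groups that only the open controls can estimate. With a term for the second experiment 0 members were called, and the differences shrank to -1.15 for beat-Ia (adjusted p 0.206), -1.16 for beat-IV, -1.18 for dpr10 and -0.87 for dpr18. Leaving out 1 array gave 0 to 13 calls, with 0 when the first 6g array was left out. Beside the members, 8 of 24 neuronal genes were lower at 12g and 0 higher, 22 of 60 other guidance and recognition genes were lower and 1 higher, and 4 of 11 ecdysone regulators were lower.

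**Figure D4:**
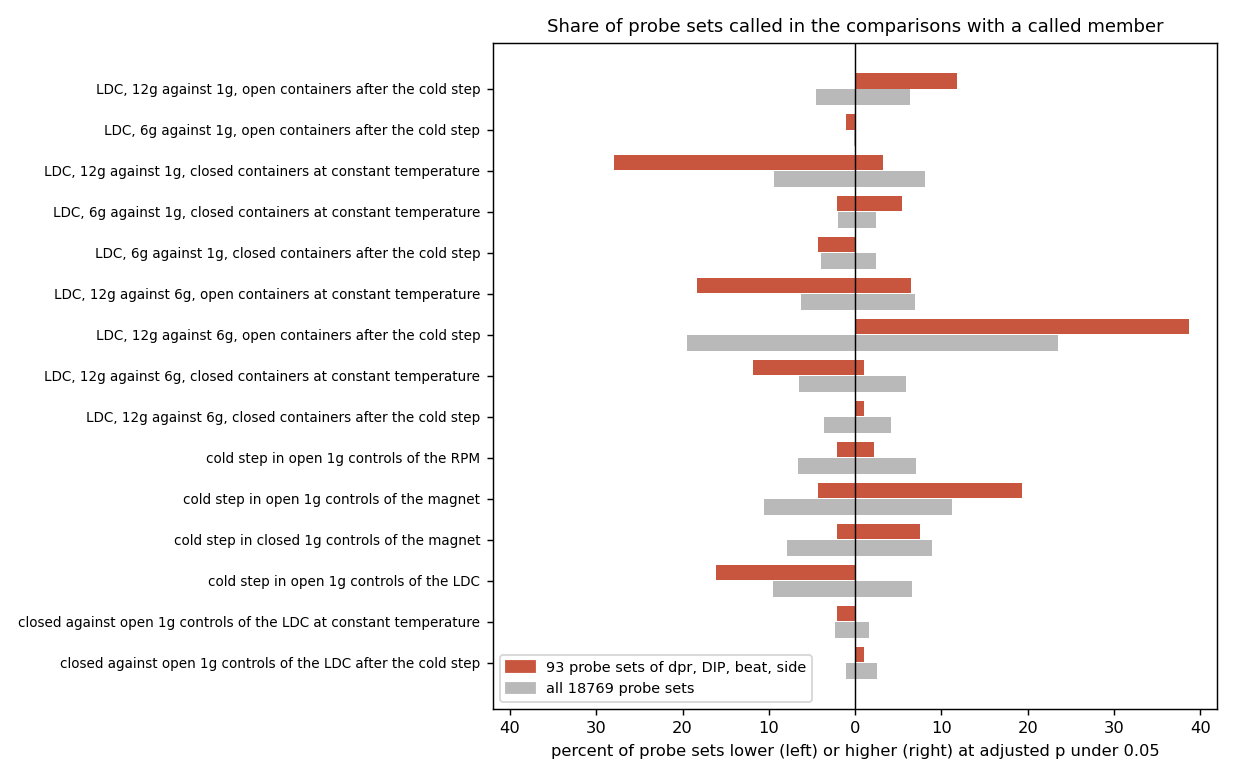
Percent of the 93 member probe sets (red) and of all 18769 probe sets (grey) that were lower (to the left) or higher (to the right) at an adjusted p under 0.05, in the comparisons with at least 1 called member. The longest red bars are 38.7% higher for 12g against 6g in open containers after the cold step (grey 23.5%) and 28% lower for 12g against 1g in closed containers (grey 9.4%).

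After the cold step in open containers members were called against 1g. The change of the 12g response with the cold step was itself called in 1 of 93 probe sets. That probe set was higher (1.08%, against 1.17% of all), and 0 were lower (2.18% of all). At 12g against 1g, 11 of 93 probe sets were higher (11.8%, against 6.34% of all probe sets) and 0 lower (4.51% of all). By gene these were side-VIII, dpr14, DIP-delta (the partner of Dpr12), DIP-gamma (the partner of Dpr11), dpr7, dpr3 and dpr1, the gene whose feeding phenotype gave the family its name. DIP-delta read 6.52, 6.44 and 6.28 at 12g and 5.67, 5.94 and 5.97 at 1g (0.55 ± 0.16, adjusted p 0.0296). dpr14 read 6.86, 7 and 6.8 against 6.24, 6.62 and 6.11 (0.56 ± 0.19, adjusted p 0.0493), and side-VIII 7.33, 7.38 and 7.22 against 6.12, 7.02 and 6.82 (0.66 ± 0.19, adjusted p 0.0258). The arrays of the groups did not overlap in these genes. Only dpr7 of the 15 covarying genes was among those called. At 6g 0 probe sets were higher and 1 lower (0.101% and 0.112% of all), a second probe set of dpr2 at -0.71 ± 0.15. The rotational control had 0 called (0.0533%) with 5 at an unadjusted p under 0.05 (5.38%, against 15.5% of all).

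Beside the 11 calls at 12g, a fit of the compared groups alone gave 0, arrays of the first experiment alone gave 2, a fit with the second experiment as a term gave 5, against the rotational control in place of 1g there were 29 (with side-VIII at 0.28, adjusted p 0.249), and leaving out 1 array gave 1 to 21 (1 without the second 12g array). The 10 male accessory gland genes moved far more in this comparison, with 9 of 10 lower at 12g and a median of -3.77. The arrays at 12g also had a narrower spread of values, with SDs over all probe sets of 1.93 to 2.04 against 2.06 to 2.12 at 1g, and their 25th percentile lay at 5.16 to 5.36 against 5.05 to 5.17. The part of these differences in the member values was not tested, apart from a repeated quantile normalization, under which dpr14 differed by 0.74, DIP-delta by 0.65 and side-VIII by 0.91.

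Set against 6g after the cold step, 36 of 93 probe sets were higher at 12g (38.7%, against 23.5% of all) and 0 lower (0%, against 19.5% of all). By gene 18 were higher, of which 17 were outside the covarying genes. side-V read 7.58, 7.05 and 6.89 at 12g and 6.21 and 6.09 at 6g (1.02 ± 0.26, adjusted p 0.00409). dpr3 read 6.79, 6.51 and 6.27 against 5.61 and 5.68 (0.88 ± 0.19, adjusted p 0.00134), and dpr14 6.86, 7 and 6.8 against 6.11 and 5.99 (0.84 ± 0.21, adjusted p 0.00338). Every 12g array was above both 6g arrays in these genes. Further called genes were dpr8 (0.87), beat-IIIa (0.81), DIP-delta (0.8), dpr1 (0.78), DIP-gamma (0.74), dpr6 (0.68), beat-IIIc (0.65), dpr13 (0.64) and dpr2 (0.62), each higher at 12g.

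By family, 16 of 37 dpr probe sets were higher, 7 of 16 DIP, 7 of 18 beat and 6 of 22 side. The count fell to 18 with the term for the second experiment, where dpr14 (1.01, adjusted p 0.00523), dpr3 (0.74), DIP-delta (0.7), DIP-gamma (0.67), dpr1 (0.58) and dpr2 (0.52) were called, and leaving out 1 array gave 17 to 39. Of the neuronal genes 8 of 24 were higher and 0 lower, and 9 of 10 male genes were lower with a median of -4.93. The arrays at 6g had SDs of 2.18 to 2.21 and a 25th percentile of 4.96 to 5 and so the widest spread, which was not tested as to its part in the member values.

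**Figure D5:**
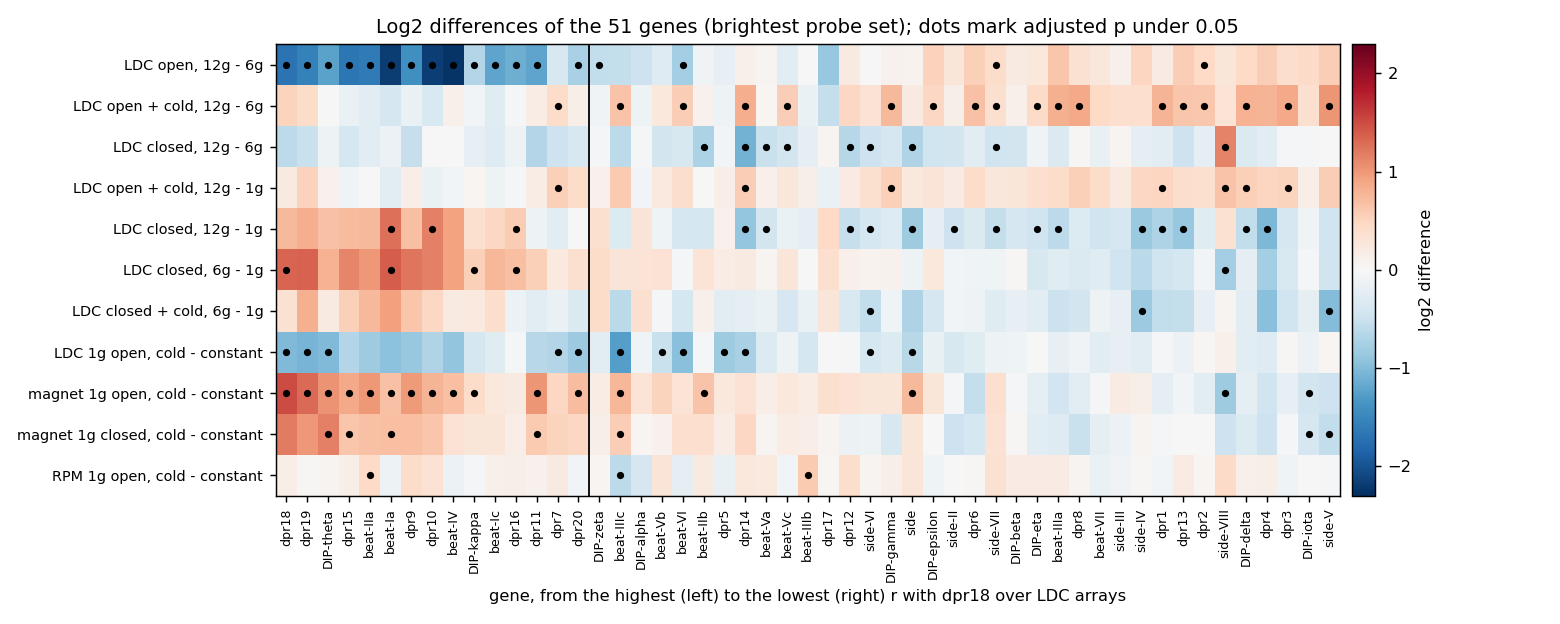
Log2 differences of the 51 genes in 11 comparisons; columns run from the highest to the lowest r with dpr18 over the LDC arrays, the vertical line closes the 15 covarying genes, and dots mark an adjusted p under 0.05. The covarying genes are blue at 12g against 6g in open containers (beat-IV -2.26), and the genes right of the line are blue at 12g against 1g in closed containers (dpr14 -0.89) and red at 12g against 6g after the cold step (side-V 1.02).

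In closed containers at constant temperature most called members were lower. At 12g against 1g, 26 of 93 probe sets were lower (28%, against 9.4% of all) and 3 higher (3.23%, against 8.14% of all). The lower ones were 10 of 37 dpr probe sets, 10 of 22 side, 4 of 18 beat and 2 of 16 DIP. By gene 14 of the 36 genes outside the covarying set were lower, and 3 of the 15 covarying genes were higher, which describes a set chosen on these arrays. The median over the members was -0.3, against -0.09 over all probe sets. Of other lists, 7 of 10 male genes were higher and 0 lower (median 2.34), 3 of 11 ecdysone regulators, 3 of 8 tanning enzymes and 3 of 8 glial genes were higher and 0 lower, 5 of 24 neuronal genes were higher and 4 lower, and 4 of 60 other guidance and recognition genes were higher and 9 lower.

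dpr14 read 6.15, 6.1 and 6.36 at 12g and 7.29, 6.85 and 7.14 at 1g (-0.89 ± 0.19, adjusted p 0.00231), and dpr13 5.43, 5.54 and 5.6 against 6.53, 6.49 and 6.17 (-0.87 ± 0.18, adjusted p 0.00238). The ligand gene side read 5.63, 5.88 and 5.74 against 6.74, 6.62 and 6.34 (-0.82 ± 0.19, adjusted p 0.00575), and side-IV 5.75, 5.95 and 5.96 against 6.81, 6.97 and 6.43 (-0.85 ± 0.2, adjusted p 0.00559). All 12g arrays were below all 1g arrays in these 4 genes. Other members that fell were dpr4 (-1.03), dpr1 (-0.71), beat-IIIa (-0.61), DIP-delta (-0.57), side-VII (-0.54), dpr12 (-0.53), side-II (-0.48) and DIP-eta (-0.45), with overlapping arrays in dpr12. Those that rose were beat-Ia, at 6.57, 6.99 and 6.25 against 5.32, 5.24 and 5.46 (1.26 ± 0.33, adjusted p 0.0116), dpr10 (1.16 ± 0.35) and dpr16 (0.58 ± 0.17).

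The experiments bear on this contrast, since the 12g arrays were all of the second and the 1g arrays all of the first. Estimating the step between experiments from the open controls left 2 calls, dpr14 (-1.07, adjusted p 0.00318) and side-VII (-0.59, adjusted p 0.0101), while dpr4 came to -0.06, side-IV to -0.33 and beat-Ia to 0.22. This carried a common step over to closed containers, where no group held both experiments. In the open controls the median step of the covarying genes was 1.03 and 1.4 at constant temperature but 0.46 and 0.46 after the cold step. Whether the common step held in closed containers was not tested. Leaving out 1 array gave 7 to 26 calls, with 7 when the first 1g array was left out.

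At 6g in closed containers 5 probe sets were higher (5.38%, against 2.39% of all) and 2 lower (2.15%, against 2.03%). beat-Ia read 6.69 and 6.77 against 5.32, 5.24 and 5.46 at 1g (1.39 ± 0.37, adjusted p 0.0311) and dpr18 8.65 and 9.08 against 7.68, 7.1 and 7.8 (1.34 ± 0.38, adjusted p 0.0411), both without overlap. dpr16 (0.69 ± 0.19) and DIP-kappa (0.55 ± 0.16) were also higher, and side-VIII was lower (-0.78 ± 0.21). The higher genes are 4 of the 15 covarying genes, whose median here was 0.92. The experiments were again divided as for 12g, and 0 calls were left with the term for the second experiment. The rotational control had 0 called (0%) with 1 at an unadjusted p under 0.05 (1.08%, against 1.68% of all).

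Both hypergravity levels in closed containers were of the second experiment, and their contrast was free of that division. Their array names shared no letter, however, with A, B and C at 12g and H and I at 6g. What the letters stand for is not given, and a division that follows them cannot be told apart from gravity level. It gave 11 of 93 probe sets lower at 12g (11.8%, against 6.56% of all) and 1 higher (1.08%, against 5.92%). dpr14 read 6.15, 6.1 and 6.36 at 12g and 6.96 and 7.62 at 6g (-1.09 ± 0.21, adjusted p 0.000442). side-VIII read 7.5, 7.56 and 7.37 against 6.42 and 6.26 (1.14 ± 0.21, adjusted p 0.000279) and was the single member that was higher at 12g. In neither gene did the levels overlap, and the 1g controls, of the first experiment, read 7.29, 6.85 and 7.14 in dpr14 and 7.12, 7.21 and 7.04 in side-VIII.

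The other called genes were beat-IIb (-0.72 ± 0.18, adjusted p 0.00738), side (-0.7 ± 0.22), dpr12 (-0.65 ± 0.2), beat-Va (-0.51 ± 0.16), side-VI (-0.48 ± 0.15), side-VII (-0.46 ± 0.13) and beat-Vc (-0.42 ± 0.14), all lower at 12g. Of the 15 covarying genes 0 were called, with a median of -0.29 that matched the -0.29 of the 36 others. Calls numbered 12 with the second experiment fitted alone and 15 with the term, but 3 when only these 2 groups were fitted and 3 to 10 when 1 array was left out (3 without the first 12g array). In the same contrast 9 of 10 male genes were higher (median 3.8), and 3 neuronal genes were higher and 2 lower of 24.

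Closed containers after the cold step showed less. At 12g 0 members were called (0.421% of all probe sets) and in the rotational control 0 (0.00533%). At an unadjusted p under 0.05 there were 12 and 2 (12.9% and 2.15%, against 14.1% and 3.51% of all). At 6g 4 were lower (4.3%, against 3.96% of all) and 0 higher (2.45% of all). side-V read 6.24 and 6.48 at 6g and 7.23 and 7.49 at 1g (-1 ± 0.29, adjusted p 0.0346), and side-IV 5.97 and 5.68 against 6.63 and 6.71 (-0.84 ± 0.25, adjusted p 0.037). Both were lower on both 6g arrays, as was side-VI (-0.57 ± 0.17). None of these was called with the term for the second experiment, which left 0. In that comparison 9 of 10 male genes were higher at 6g (median 4.81), 3 of 7 photoreceptor genes were lower and 1 of 24 neuronal genes was higher. For 12g against 6g 1 probe set was higher (1.08%, against 4.12% of all) and 0 lower (3.6% of all), namely beat-IIIc at 7.72 and 7.29 against 6.55 and 6.74 (0.86 ± 0.27, adjusted p 0.0481), and it was lost when any 1 array was left out.

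Whether the response to 12g depended on the environment was tested by the difference of differences. Closed containers against open ones at constant temperature gave 30 called probe sets, 21 lower (22.6%, against 8.53% of all) and 9 higher (9.68%, against 5.93%). The response of beat-Ia was higher by 2.36 ± 0.5 in closed containers (adjusted p 0.00742), that of beat-IV by 2.03 ± 0.61 and that of dpr10 by 1.88 ± 0.52. The responses of side-IV (-1.34 ± 0.3, adjusted p 0.00964), dpr4 (-1.33 ± 0.45) and dpr13 (-1.23 ± 0.27, adjusted p 0.00944) were lower. With the term for the second experiment 0 were called, and leaving out 1 array gave 4 to 38 (4 without the second open 1g array).

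For the cold step in open containers the 12g response differed in 1 probe set, which was higher (1.17% of all higher, 2.18% lower), and for closed containers after the cold step in 4, with 2 higher (2.15%, against 1.7% of all) and 2 lower (2.15%, against 2.08%). The 6g response differed in 0 members in each of the 3 contrasts, beside 0%, 0.176% and 0.868% of all probe sets. At an unadjusted p under 0.05 there were 7, 2 and 12 (7.53%, 2.15% and 12.9%, against 5.89%, 6.45% and 11.7% of all).

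The cold step was then followed in the 1g controls, away from altered gravity. In the magnet controls in open containers 18 of 93 probe sets were higher after it (19.4%, against 11.2% of all) and 4 lower (4.3%, against 10.6%). The higher ones took in 12 of the 15 covarying genes, and 3 of the 36 others. dpr18 read 6.52, 6.79 and 7.38 after the cold step and 4.09, 6.34 and 5.76 without it (1.5 ± 0.45, adjusted p 0.018), so that 1 control array lay well below the rest. dpr11, a ligand of DIP-gamma, read 4.33, 4.56 and 4.96 against 3.62, 3.63 and 3.58 (1.01 ± 0.2, adjusted p 0.000591), and DIP-theta 5.21, 5.6 and 5.92 against 4.21, 5.01 and 4.41 (1.03 ± 0.23, adjusted p 0.00178).

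The groups did not overlap in these 3 genes. Higher as well were dpr19 (1.31), beat-IIa (0.99), dpr9 (0.98), dpr15 (0.87), dpr10 (0.78), beat-IIIc (0.76), side (0.75), dpr20 (0.71), beat-IV (0.69), beat-Ia (0.68), beat-IIb (0.66) and DIP-kappa (0.43), with overlapping arrays in dpr9, dpr15, dpr10 and beat-IV. side-VIII read 5.41, 5.26 and 5.16 against 5.86, 6.1 and 6.32 (-0.82 ± 0.17, adjusted p 0.000798) and was lower, as was DIP-iota (-0.43 ± 0.13). Leaving out 1 array gave 9 to 32 calls, the lowest without the third array of the cold step and the highest without the second control array, and a fit of these 2 groups alone gave 3. Other lists moved too. Of the 60 guidance and recognition genes 32 were higher and 1 lower, led by stan (2.11 ± 0.23) and rst (2.05 ± 0.28), 6 of 8 tanning enzymes were higher and 10 of 10 male genes lower.

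In the closed magnet controls 7 probe sets were higher after the cold step (7.53%, against 8.96% of all) and 2 lower (2.15%, against 7.92%), shares at or below the background. DIP-theta read 5.9, 5.71 and 5.67 against 4.68, 4.74 and 4.41 (1.15 ± 0.23, adjusted p 0.00104) and beat-Ia 5.03, 5.16 and 4.72 against 4.48, 3.96 and 4.4 (0.69 ± 0.19, adjusted p 0.0148), without overlap. dpr15 (0.64), dpr11 (0.6) and beat-IIIc (0.56) were also higher, and side-V (-0.57) and DIP-iota (-0.38) lower. When 1 array was left out there were 2 to 16 calls (2 without the second control array).

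In the open LDC controls the cold step went with lower values. Of the 93 probe sets 15 were lower (16.1%, against 9.48% of all) and 0 higher (6.55% of all), and each of the compared groups held both experiments in the same proportion. beat-IIIc read 7.07, 7 and 6.49 after the cold step and 8.27, 8.07 and 8.03 without it (-1.27 ± 0.22, adjusted p 0.000156). beat-VI, a receptor for Side-II, read 6.35, 6.06 and 6.12 against 6.76, 7.33 and 7.31 (-0.96 ± 0.19, adjusted p 0.000745), and dpr5 6.04, 5.3 and 5.59 against 6.23, 6.55 and 6.57 (-0.81 ± 0.18, adjusted p 0.00177). All arrays of the cold step were below all others in these genes.

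The brightest member dpr7 was lower by a smaller step, at 8.58, 8.85 and 8.51 against 9.26, 9.52 and 9.2 (-0.68 ± 0.15, adjusted p 0.00234). Further lower genes were dpr19 (-1.07), DIP-theta (-1.01), dpr18 (-1.01), dpr20 (-0.84), dpr14 (-0.74), side (-0.63), beat-Vb (-0.51) and side-VI (-0.41), with overlapping arrays in dpr19 and side. With the term for the second experiment there were 22 lower and 1 higher, and in arrays of the second experiment alone 23 lower and 2 higher, where beat-IIIc fell by 1.31 on the log2 scale (adjusted p 0.000773) and dpr5 by 1.11 (adjusted p 3.2e-05). A fit of these 2 groups alone gave 2 calls, arrays of the first experiment alone gave 1, and leaving out 1 array gave 7 to 19 (7 without the third array of the cold step). Of the guidance and recognition genes 21 of 60 were lower and 0 higher, among them stan (-1.63 ± 0.29) and rst (-1.73 ± 0.3), 5 of 24 neuronal genes were lower, and 9 of 10 male genes were higher with a median of 4.34.

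The open controls of the magnet and of the LDC thus had some calls in opposite directions after the cold step. These genes were dpr18, dpr19, DIP-theta, dpr20, side and beat-IIIc, of which side and beat-IIIc are outside the covarying genes. That difference between facilities was not tested, since each facility was fitted by itself, and the cold step ran in each as its own experiment. In the closed LDC controls the cold step gave 0 calls (1.41% of all probe sets). There 6 members had an unadjusted p under 0.05 (6.45%, against 10.9% of all), with the lowest p in beat-IIb (-0.67 ± 0.18, adjusted p 0.0645).

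In the RPM controls 2 probe sets were higher after the cold step (2.15%, against 7.07% of all) and 2 lower (2.15%, against 6.57%), all of them of beat genes. beat-IIIc read 6.24, 6.23 and 6.22 after the cold step and 6.9, 7 and 6.59 without it (-0.6 ± 0.17, adjusted p 0.0269), and its second probe set differed by -1.56 ± 0.15 (adjusted p 0.00017). beat-IIIb read 4.79, 4.94 and 4.82 against 4.28, 4.37 and 4.09 (0.6 ± 0.16, adjusted p 0.0208) and was higher without overlap, as was beat-IIa (0.45 ± 0.14). Omission of 1 array gave 1 to 5 calls (1 without the first control array). beat-IIIc was thus called after the cold step in the open 1g controls of all 3 facilities, lower in the RPM and the LDC and higher in the magnet.

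The closed container gave few calls in 1g controls. In the RPM after the cold step 0 were called (0.00533% of all), and in the magnet 0 at constant temperature (0%) and 0 after the cold step (1.58%). At an unadjusted p under 0.05 there were 10, 2 and 2 members (10.8%, 2.15% and 2.15%, against 12.4%, 4.89% and 7.42% of all). In the LDC at constant temperature 2 were lower (2.15%, against 2.29% of all) and 0 higher (1.58% of all). One of them was beat-Ia, at 5.32, 5.24 and 5.46 in closed containers and 5.77, 7.12 and 6.65 in open ones (-1.17 ± 0.33, adjusted p 0.0445), where the closed arrays were of the first experiment and the higher pair of open arrays of the second. In the LDC after the cold step 1 was higher (1.08%, against 2.57% of all) and 0 lower (1.07% of all), a second probe set of side-VI at 0.74 ± 0.2. At an unadjusted p under 0.05 these LDC comparisons had 23 and 22 members (24.7% and 23.7%, against 20.4% and 20.2% of all probe sets). With the term for the second experiment 0 were called in either, and without 1 array the calls ran from 0 to 13 and from 0 to 10, the highest without the first open 1g array in each. After the cold step 9 of 10 male genes were lower in closed containers (median -4.36).

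Known binding partners were read side by side in 9 pairs, as values with no test of the pair. At 12g against 6g in open containers at constant temperature dpr10 was lower (-2.16) and its receptor DIP-alpha differed by -0.48 ± 0.23 (adjusted p 0.136), while dpr6, the other ligand of DIP-alpha, differed by 0.54 ± 0.19 (adjusted p 0.0516) at its brightest probe set and was higher at another (0.79, adjusted p 0.0162). In the same contrast the receptor beat-Ia was lower (-2.18) and its ligand side differed by 0.08 ± 0.24, and beat-IIa was lower (-1.62) where side-IV differed by 0.5 ± 0.25. In the pairs of dpr10, beat-Ia and beat-IIa the partner was not called.

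Both partners were called in the same direction in side-VI and beat-Va at 12g against 6g in closed containers (-0.48 and -0.51) and at 12g against 1g there (-0.4 ± 0.14 and -0.43 ± 0.14), in dpr12 and DIP-delta at 12g against 1g in closed containers (-0.53 and -0.57), and in side and beat-Ia after the cold step in the open magnet controls (0.75 and 0.68). In opposite directions were side (-0.82) and beat-Ia (1.26) at 12g against 1g in closed containers. Over the arrays, side-VI and beat-Va correlated at 0.31 in the RPM, 0.24 in the magnet and 0.66 in the LDC, and side and beat-Ia at -0.03, 0.68 and -0.1. The r of the 9 pairs in the LDC ran from -0.44 (side-IV and beat-IIa) to 0.66, over arrays that share groups and experiments.

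Probe sets of one gene did not always move together. A second probe set of dpr8 followed dpr18 at r of 0.64 in the RPM, 0.83 in the magnet and 0.9 in the LDC, whereas its brightest one had 0.1, -0.75 and -0.26. At 12g against 6g in open containers that second set was lower (-1.42 ± 0.27, adjusted p 0.00809) and the brightest set differed by 0.35. A second probe set of dpr9 was lower at 12g in closed containers (-0.75 ± 0.19, adjusted p 0.00911) where the brightest differed by 0.7. Opposite signs between a called set and the brightest one also occurred in side-VIII (-0.36 and 0.35) at 12g in closed containers, and after the cold step in the open magnet controls in dpr13 (0.63 and -0.07) and DIP-epsilon (-0.64 and 0.27). Which transcripts these sets detect is not given in the sources used here.

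Over the 41 comparisons without the differences of differences, 5 of the 51 genes were never called at their brightest probe set, namely beat-VII, DIP-alpha, DIP-beta, dpr17 and side-III. Called most often were beat-Ia and beat-IIIc, in 6 comparisons each, and dpr14, in 5. beat-Ia was higher in 4 of them and lower in 2, as was beat-IIIc, while dpr14 was higher in 2 and lower in 3. These comparisons share control groups, so the numbers of calls are not independent. The matching numbers over all genes are not given beside them. The LDC calls of beat-Ia fell in comparisons whose groups differed in experiment. They were not made with the term for the second experiment.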

How the data were processed

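The deposited table holds log2 intensities, made by the authors from the scanned arrays with RMA (version not given in the sources used here, as for their limma), 1 value for each of 18952 probe sets on 90 arrays. After removal of 183 control probe sets, each facility was given its own linear model over all its groups in limma 3.58.1 (R 4.3.3, moderated two-sided tests), and p-values were adjusted by Benjamini-Hochberg over 18769 probe sets. The platform annotation names several genes for 402 probe sets. Of these, 2 hold a member and were left out, and all 51 members matched the RefSeq gene table. The alternatives listed in the closing section took in other normalizations, blocks, array subsets and thresholds. The members, gene lists, pairs and alternatives were chosen with earlier results of these data known. Genes are named by size of change among called members (up to 12 in each direction), or by the 3 smallest p-values where none was called, plus binding partners, the 5 brightest and 5 dimmest, and probe sets that disagree. Markers of the experiments come from the conditions table of the study. Replicate numbers in the labels were checked as pairs and gave no pairing that held in all environments. The limma code was tested on simulated data. Sequences of the members were not used here. The number of arrays limits the precision.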

Additional observations from a re-analysis of the deposited data

Results flagged for a closer look

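In the 2 RPM groups of 4 arrays, a single array lay apart from the rest in 5 of 102 gene and group combinations, and chance alone flags about 1 in 20. In closed containers after the cold step at simulated 0g, beat-VI read 5.62 on replicate 2 where the nearest array read 5.9, DIP-theta read 5.14 on replicate 3 (nearest 5.45), dpr11 read 4.33 on replicate 3 (nearest 4.08) and dpr19 read 7.38 on replicate 1 (nearest 6.71). In the 1g control of that environment DIP-beta read 4.01 on replicate 3 (nearest 4.12).

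The response to 12g was tested for a difference between environments, each against open containers at constant temperature. After the cold step in open containers 1 member probe set was higher (1.08%, against 1.17% of all) and 0 lower (2.18% of all). In closed containers at constant temperature 30 were called, 21 lower (22.6%, against 8.53%) and 9 higher (9.68%, against 5.93%). In closed containers after the cold step 2 were higher (2.15%, against 1.7%) and 2 lower (2.15%, against 2.08%), shares near the background. Of the 30 calls 0 were made with a term for the second experiment, which held all 12g arrays in closed containers and none in open ones.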

How the results depend on the processing

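The 52 counts of called members were recomputed under 424 alternatives, of which 343 gave a count within 1.5 times the first one, and with 353 omissions of 1 array, of which 268 did. Counts below run from the value in the report to the value under the alternative. The share of all probe sets called under an alternative is not given beside them. A shift in the members is therefore not set apart from a shift over the whole array. A lone remaining array was taken to vary like the arrays of other groups. The causes of these shifts were not tested, beyond the smaller number of arrays or probe sets that a setting leaves.

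A term for the second LDC experiment took 12g against 6g in open containers at constant temperature from 23 to 0. The same contrast after the cold step went from 36 to 18. In closed containers that term rests on a step estimated from the open controls. It took 12g against 1g from 11 to 5 in open containers after the cold step and from 29 to 2 in closed containers at constant temperature, and 6g against 1g in closed containers from 7 to 0 and, after the cold step, from 4 to 0. The cold step in LDC controls went from 15 to 23 in open and from 0 to 1 in closed containers, and closed against open controls from 2 to 0 and, after the cold step, from 1 to 0. The differences of the 12g response went from 1 to 3 (cold step), 30 to 0 (closed) and 4 to 0 (both), and that of the 6g response from 0 to 2 (both). For the 12g response in closed minus open containers the signs of dpr15 (1.43 to -0.17) and dpr4 (-1.33 to 0.28) turned. In arrays of the first experiment alone, 12g against 1g in open containers after the cold step went from 11 to 2, the cold step in open controls from 15 to 1, closed against open controls from 2 to 0 and, after the cold step, 1 to 0, and the 12g difference for the cold step from 1 to 0. In arrays of the second alone the rotational control after the cold step went from 0 to 1 and the cold step in open controls from 15 to 25.

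Fitting only the groups compared took the cold step in magnet controls from 22 to 3 (open) and 9 to 19 (closed) and in open LDC controls from 15 to 2. It took 12g against 1g after the cold step from 11 to 0, 6g against 1g after it from 1 to 0, in closed containers from 7 to 14 and in closed containers after it from 4 to 1, and 12g against 6g from 23 to 10 (open), 12 to 3 (closed) and 1 to 0 (closed, cold step). Closed against open LDC controls went from 2 to 0 and, after the cold step, 1 to 0, and the 12g differences from 1 to 0, 30 to 6 and 4 to 0. An unadjusted p under 0.001 in place of the adjusted threshold gave 1 for the cold step in the RPM (4 before), 9 and 2 in the open and closed magnet controls (22 and 9) and 8 in the open LDC controls (15). It gave 2 for 6g against 1g in open containers (0 before) and 2 for 12g after the cold step (11), 9 for 12g and 2 for 6g in closed containers (29 and 7) and 1 for 6g in closed containers after the cold step (4). For 12g against 6g it gave 12, 16, 4 and 0 (23, 36, 12 and 1), for closed against open LDC controls 0 and 0 (2 and 1), and for the 12g differences 0 and 9 for cold step and closed (1 and 30).

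The replicate numbers gave no pairing that held in all environments (same-number deviations correlated at -0.54 to 0.58 over them). In closed RPM containers after the cold step these correlations ran from 0.06 to 0.33, against a median of -0.12 for different numbers. In every other environment they had both signs. With the replicate number as a block 9 counts moved. They were 2g* against 1g* at constant temperature (0 to 2), 12g and 6g against 1g in open containers after the cold step (11 to 17 and 1 to 0), 6g against 1g in closed containers (7 to 15), 12g and 6g in closed containers after the cold step (0 to 1 and 4 to 10), 12g against 6g there (1 to 0), closed against open LDC controls after the cold step (1 to 0) and the 12g difference for the cold step (1 to 0). With the letter of the array names as a block 6g after the cold step went from 1 to 0 and 12g in closed containers from 29 to 50.

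Quantile normalization gave 2 for 2g* against 1g* (0 before), 19 for 12g in closed containers (29), and 3 and 3 for closed LDC controls after the cold step and the 12g difference for the cold step (1 and 1). Centring on array medians gave 25 for 12g after the cold step (11), 17 for 12g in closed containers (29), and 0 and 2 for the latter pair. Without dim probe sets 12g and 6g after the cold step gave 7 and 0 (11 and 1) and 12g against 6g in open containers 15 (23). Trend and robust settings gave 1 for 2g* against 1g* (0), 0 for 12g against 6g in closed containers after the cold step (1) and 2 for closed LDC controls after it (1). The rotational control in place of 1g gave 3 for 12g in open containers (0), 29 for it after the cold step (11) and 2 for 6g in closed containers (7).

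Leaving out 1 array gave 1 (first 1g array at constant temperature) to 5 for the cold step in the RPM, 9 to 32 in open and 2 to 16 in closed magnet controls, 7 to 19 in open LDC controls and 0 to 1 in closed ones. In the magnet 2g* against 1g* ran from 0 to 2 (without the third 2g* array) and 0g* against 2g* from 0 to 1 (without the first 0g* array), both at constant temperature. Against 1g, 12g gave 0 to 3 in open containers (3 without the first 1g array), 1 to 21 after the cold step (without the second and the third 12g array) and 7 to 26 in closed containers. 6g gave 0 to 1 after the cold step, 0 (without the first 6g array) to 4 in closed containers and 0 to 5 in closed containers after it (without the first and the second 6g array), and the rotational control after the cold step 0 to 1. 12g against 6g gave 0 to 13 (open), 17 to 39 (cold step), 3 to 10 (closed) and 0 to 0 (both). Closed against open LDC controls gave 0 to 13 (13 without the first open 1g array) and, after the cold step, 0 to 10 (10 without the first open one). The differences gave 0 to 2 (12g, cold step), 4 to 38 (12g, closed), 0 to 14 (12g, both; 14 without the first open 1g array) and 0 to 1 (6g, both).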
